A study of Mus musculus with 13 samples.

Results

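The hearts compared here came from C10 G58R OMA1+/- mice given the second OMA1-targeting antisense oligomer, OMA1 ASO2, and from mice of the same genotype given a nontargeting oligomer, CTRL ASO. The 3 OMA1 ASO2 arrays and the 5 CTRL ASO arrays were taken by their labels and are 8 of the 13 arrays in the series. All mice of both groups carried the G58R mutation of C10 (encoded by Chchd10) and a single functional Oma1 allele, so the controls already had a reduced Oma1 gene dose. The oligomers were injected under the skin weekly at 50 mg/kg, and hearts were taken at 33 weeks of age. Each array is 1 mouse, read on a Clariom S Mouse array, and all values below are log2 signals as deposited or differences between them.

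OMA1 is a protease of the inner mitochondrial membrane that is activated when that membrane is stressed. It cleaves DELE1, which then leaves the mitochondrion and activates the eIF2α kinase HRI (Eif2ak1) in the cytosol. Phosphorylated eIF2α slows general protein synthesis while favoring translation of the transcription factor ATF4, and the program that ATF4 and its partners turn on is called the integrated stress response (ISR). In striated muscle with a failing respiratory chain, this program is known for raising genes of amino acid synthesis and uptake, tRNA charging and mitochondrial one-carbon metabolism.

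The arrays were alike in their median signal, but OMA1 ASO2 replicate 3 had a lower background. It was 5.77 there, against 6.03 to 6.07 on the other arrays, and that array had the most clusters above background, 10069. The median signal was 5.30 to 5.33 on the OMA1 ASO2 arrays and 5.28 to 5.33 on the CTRL ASO arrays, and 9389 to 10069 clusters with OMA1 ASO2 and 9436 to 9577 with CTRL ASO lay above the background probes of their own array. Defining cardiomyocyte markers were strongly detected in both groups, and none of the 6 passed the test. The labels do not give the sex of the mice. The Y-linked genes Kdm5d, Uty and Eif2s3y lay below background on all 3 OMA1 ASO2 arrays and on CTRL ASO replicates 2, 3 and 5, but averaged 9.93 and 9.92 on CTRL ASO replicates 1 and 4. Results are therefore given beside those from the 3 CTRL ASO arrays without Y-linked signal wherever leaving out the other 2 ended a call.

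Oma1 itself was below background in every OMA1 ASO2 heart. Its log2 signal was 4.65, 3.74 and 5.31 in OMA1 ASO2 hearts, against 9.38, 9.13, 9.83, 9.35 and 9.36 in CTRL ASO hearts, so the groups were far apart. Measured against the background of the OMA1 ASO2 arrays, Oma1 was at least 11.0-fold lower. This and every later bound sets the CTRL ASO mean against the OMA1 ASO2 arrays' own background level, or the reverse for a gene that was higher. The fitted difference was −4.85 (SE 0.297, adjusted p = 2.03e-06, limma, Benjamini-Hochberg correction over 22206 transcript clusters), and a two-sided exact permutation test gave p = 0.0179, the smallest that 3 against 5 arrays allow.

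The other genes of the relay from OMA1 to eIF2α did not pass the test. Of 8 measured members, 1 (Oma1) was lower and 0 were higher at the adjusted p of 0.01 used for all calls. Dele1, the substrate that carries the signal, was 10.40, 9.75 and 10.71 in OMA1 ASO2 hearts and 10.57, 10.36, 11.00, 10.35 and 9.93 in CTRL ASO hearts, and the groups overlapped. The 95% interval of its difference was −0.73 to 0.42. Eif2ak1 had a difference of 0.12 (95% interval −0.31 to 0.54), and Eif2ak3, which encodes the eIF2α kinase of the endoplasmic reticulum, −0.50 (adjusted p = 0.338).

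Chchd10, the mutated gene, was 14.63, 13.91 and 15.96 in OMA1 ASO2 hearts and 16.01, 16.17, 16.48, 16.38 and 15.47 in CTRL ASO hearts. OMA1 ASO2 replicates 1 and 2 lay below every control and replicate 3 among them, and the difference of −1.27 did not pass (adjusted p = 0.125). None of the 10 genes of inner membrane quality control passed. At an unadjusted p under 0.05 in limma, 3 of them were lower and 0 higher, namely Chchd10, the protease gene Afg3l2 (−0.77, adjusted p = 0.118) and the prohibitin gene Phb2 (−0.63, adjusted p = 0.267). For this and later counts at an unadjusted p under 0.05, the share of all clusters that reached it was 13.5%, with 7.13% lower and 6.33% higher. Opa1, the fusion GTPase that OMA1 cleaves, was at 0.05 (95% interval −0.35 to 0.45).

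Across all genes, falls outnumbered rises. With OMA1 ASO2, 186 of 22206 transcript clusters passed (0.838%), 128 of them lower (0.576%) and 58 higher (0.261%). Every one differed by at least 2-fold, with a median of −1.96 among the lower and 1.57 among the higher clusters, while the median of all clusters was 0.01. The 20 clusters that fell by at least 8-fold all have names and are described below. As large a rise was seen in 4 clusters, of which Cep128, Angpt1 and Ctss are described. At an adjusted p under 0.05, 446 clusters passed (2.01%), of which 270 were lower (1.22%) and 176 higher (0.793%). None of the 186 had overlapping groups, against 9.06% of all clusters without overlap. Of the 128 lower clusters, 28 were below background on all 3 OMA1 ASO2 arrays, and of the 58 higher ones, 12 were below background on all 5 CTRL ASO arrays. Of the 186, 7 were not above background on any of the 8 arrays. In whole hearts, fewer cells of a type and less RNA per cell cannot be told apart.

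**Figure D1:**
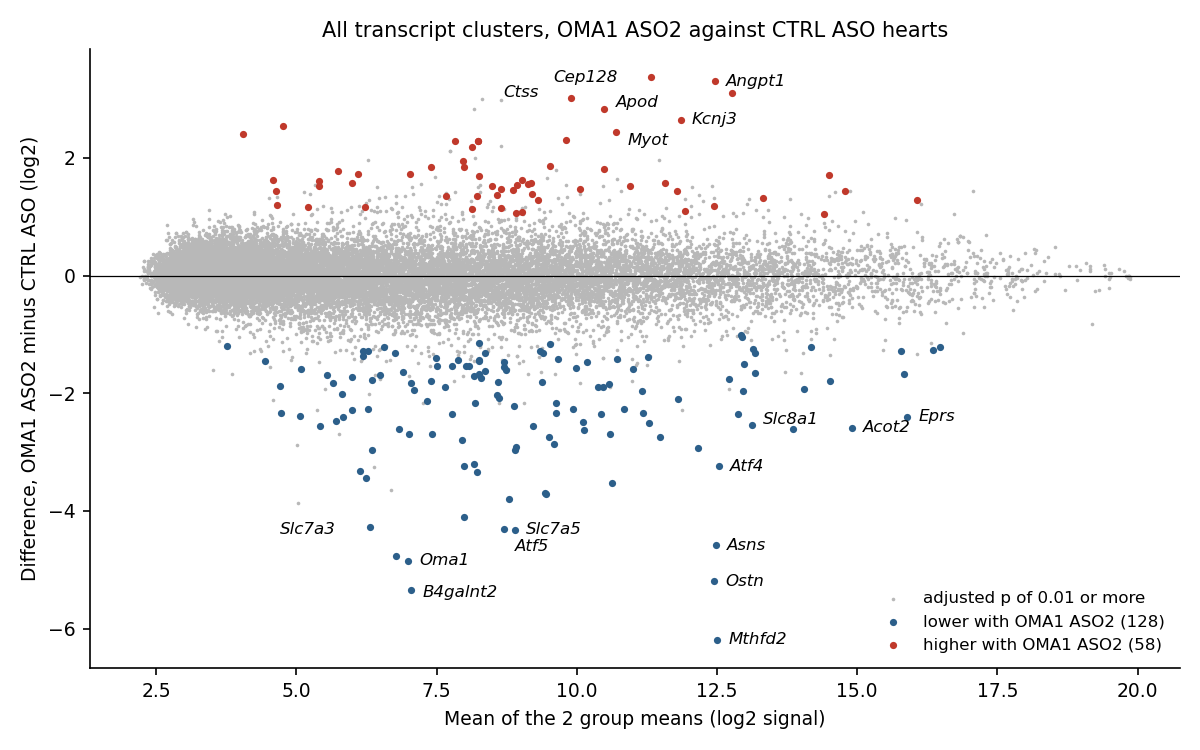
Each point is 1 transcript cluster, with the mean of the OMA1 ASO2 and CTRL ASO group means on the x axis (log2 signal) and their difference on the y axis (log2). The 128 lower clusters (blue) reach −6.19 at Mthfd2, and the 58 higher clusters (red) reach 3.37 at Cep128.

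Against the 3 CTRL ASO arrays without Y-linked signal alone, 93 clusters passed (0.419%), 70 lower (0.315%) and 23 higher (0.104%). All 186 clusters kept their direction in that comparison. Of them, 69 of the lower and 18 of the higher passed again, and 154 had an adjusted p under 0.05. The difference there was 0.822 to 1.128 times the difference against all 5 controls, with a median of 0.978.

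Most ISR transcription factors fell with OMA1 ASO2, and those that did were well separated between groups. Of 8 measured, 5 fell and 0 rose, with a median difference of −2.07. Atf4, whose protein drives the program, had signals of 10.92, 10.53 and 11.29 in OMA1 ASO2 hearts, against 14.59, 14.49, 14.13, 13.94 and 13.60 in CTRL ASO hearts. Even the highest OMA1 ASO2 heart was thus more than 2 log2 units below the lowest control, and the difference was −3.24 (SE 0.257, adjusted p = 1.1e-05 from limma). Atf5, an ATF4-related factor linked to mitochondrial stress, was 6.62, 6.49 and 6.53 in OMA1 ASO2 hearts and 11.70, 11.09, 10.77, 10.64 and 10.11 in CTRL ASO hearts, a difference of −4.31 (adjusted p = 2.82e-06). Its OMA1 ASO2 values were nearly the same in all 3 mice, although the controls spread over more than 1 unit. Those OMA1 ASO2 values lay close to the background of their arrays (6.06, 6.04 and 5.77), and whether this narrowed their spread was not tested.

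Nupr1, a small chromatin-associated stress protein gene, was 7.47, 7.80 and 7.52 with OMA1 ASO2 and 11.41, 11.27, 11.89, 11.27 and 10.73 with CTRL ASO, a fall of 13.2-fold (adjusted p = 2.5e-06). Ddit3, which encodes CHOP, was 8.64, 8.88 and 8.89 with OMA1 ASO2 and 10.66, 11.11, 11.14, 11.32 and 11.09 with CTRL ASO (−2.26, adjusted p = 2.56e-05). A second cluster annotated to Ddit3 also fell, by 1.54. Cebpg, the dimerization partner of ATF4, fell by 1.89 (adjusted p = 0.00468). Its call was lost without any 1 of the 3 OMA1 ASO2 arrays or without CTRL ASO replicate 2, at adjusted p-values of 0.0125 to 0.034.

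The remaining members had wide or overlapping groups. Trib3, a pseudokinase gene that ATF4 induces, was below background on all 3 OMA1 ASO2 arrays and at least 2.43-fold lower than in CTRL ASO hearts, but its adjusted p was 0.0171. Atf3 was 7.18, 7.12 and 7.91 with OMA1 ASO2 and 11.12, 10.06, 8.54, 8.13 and 7.68 with CTRL ASO, and the controls spread so widely that the groups overlapped (adjusted p = 0.225). Among 7 secreted factors and sensors of the ISR, only Chac1, a glutathione-degrading enzyme gene, passed. It was below background with OMA1 ASO2, at 4.31, 4.81 and 4.44, against 9.34, 9.71, 7.12, 7.09 and 6.55 with CTRL ASO, which is at least 4.02-fold (fitted difference −3.44, adjusted p = 0.00802). Its adjusted p was 0.0285 against the CTRL ASO arrays without Y-linked signal, 0.0575 with a mean-variance trend and robust fitting, and 0.01 to 0.0438 without any 1 of the 3 OMA1 ASO2 arrays or CTRL ASO replicates 1 or 3. Fgf21, the gene of a circulating ISR hormone, was at −1.12 (adjusted p = 0.279). It was above background on 0 OMA1 ASO2 arrays and on only 1 CTRL ASO array, so a change in it could hardly be measured.

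**Figure D2:**
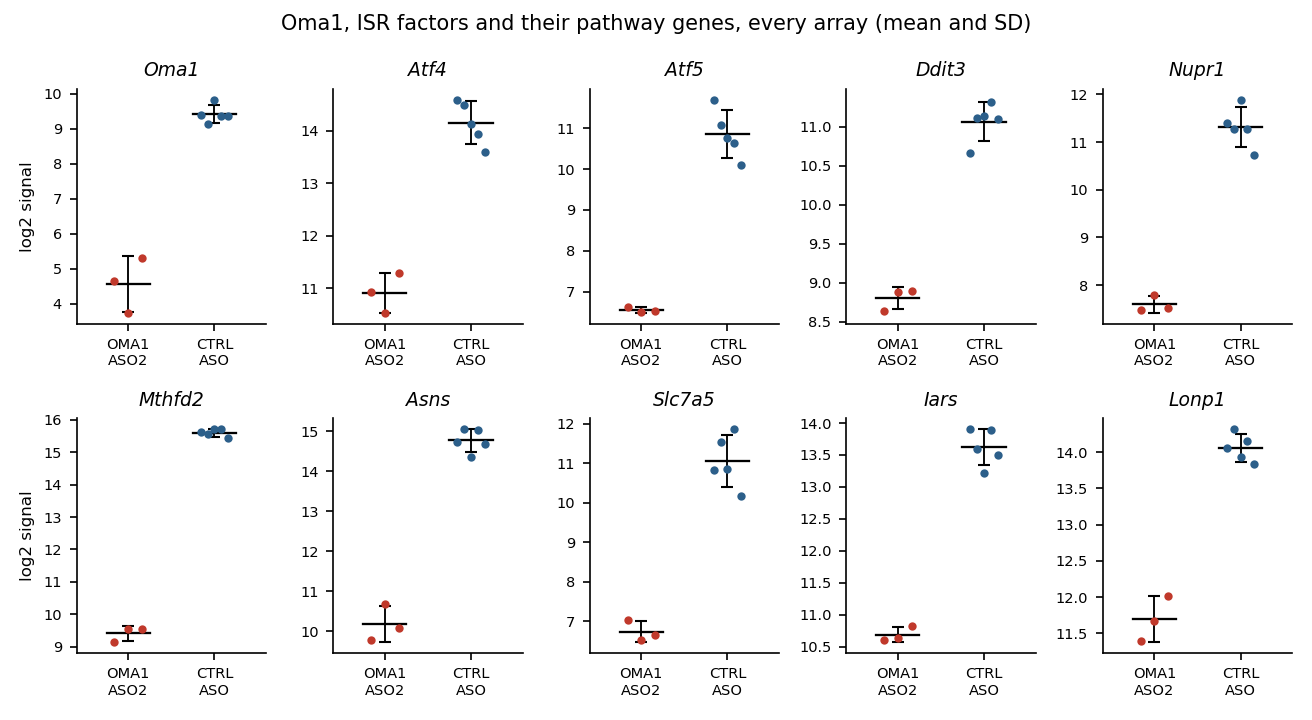
Log2 signal of 10 genes on every array, OMA1 ASO2 (red, n = 3) and CTRL ASO (blue, n = 5), with the group mean and SD as black bars and a separate y axis for each gene. In all 10 panels every OMA1 ASO2 array lies below every CTRL ASO array, with the widest gap at Mthfd2.

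ATF4 and its C/EBP partners bind a composite element whose core reads TGATGNAA. Promoter windows of RefSeq (GRCm38.p6), from 250 bases before to 50 bases after each annotated start, were searched for these letters on both strands. A window was found for 94 of the genes that fell, and 10 of them (10.6%) held a match, as did 1 of 39 genes that rose (2.56%). Of all measured genes with a window, 3.95% held one, and of all windows 3.97%. The matches upstream of the start in 6 genes that fell are shown because these genes stand for the pathways described next. Each is written 5′ to 3′ on the strand that reads TGATGNAA, with the match in capitals.

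Asns (chr6:7693210-7693258, minus strand): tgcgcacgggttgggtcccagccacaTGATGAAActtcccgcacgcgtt
Chac1 (chr2:119351023-119351082, minus strand): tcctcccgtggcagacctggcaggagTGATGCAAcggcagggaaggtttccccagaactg
Nupr1 (chr7:126625547-126625606, plus strand): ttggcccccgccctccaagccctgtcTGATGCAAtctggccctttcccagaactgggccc
Slc7a11 (chr3:50443627-50443686, plus strand): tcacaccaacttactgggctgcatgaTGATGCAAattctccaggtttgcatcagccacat
Gars (chr6:55037945-55038000, minus strand): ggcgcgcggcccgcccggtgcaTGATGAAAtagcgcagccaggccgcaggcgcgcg
Tars (chr15:11399659-11399699, plus strand): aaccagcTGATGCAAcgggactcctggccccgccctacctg

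The matches lie within 193 bases upstream of the annotated start, 23 bases before it in Asns, 30 in Gars and 193 in Chac1. The Asns match is on the strand of the gene and the other 5 shown on the opposite strand. The Slc7a11 window holds a second match on the gene's own strand, seen in the printed stretch as its reverse complement, ttgcatca. Me3, described later, also held a match upstream, 34 bases before the start, which is not printed. Iars, Yars and another gene that fell held a match past the start. A match is a description of these letters, and whether a factor binds there was not tested.

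Among 10 amino acid synthesis genes, 5 fell and 0 rose, with a median difference of −1.70. Asns, asparagine synthetase, was 9.79, 10.68 and 10.09 with OMA1 ASO2 and 14.74, 15.05, 14.36, 15.03 and 14.67 with CTRL ASO, a 24.0-fold fall (−4.58, SE 0.240, adjusted p = 3.98e-07 from limma). Phgdh and Psat1 encode the first enzymes of serine synthesis. Phgdh was below background in every OMA1 ASO2 heart, at 4.36, 4.93 and 4.10, against 7.20, 7.94, 7.93, 8.54 and 7.38 in CTRL ASO hearts, and so was at least 3.59-fold lower (adjusted p = 2.56e-05). Psat1 was 6.44, 6.58 and 6.70 with OMA1 ASO2 and 9.55, 9.81, 9.13, 10.85 and 9.51 with CTRL ASO (−3.20, adjusted p = 5.79e-05). Both were thus clearly separated between groups. Aldh18a1, which starts proline synthesis, fell by 2.79 (adjusted p = 6.51e-06), and the alanine aminotransferase gene Gpt2 by 1.70 (adjusted p = 0.00036). Cth, which makes cysteine, had a difference of −1.70 without overlap between groups, but its adjusted p was 0.0119. All 5 calls held against the CTRL ASO arrays without Y-linked signal.

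Transporters that bring amino acids into the cell changed unevenly. Of 19 measured, 5 fell and 0 rose, with a median of −0.99. Slc7a5, the light chain of the large neutral amino acid exchanger, was 7.02, 6.51 and 6.66 with OMA1 ASO2 and 10.83, 11.55, 10.85, 11.87 and 10.17 with CTRL ASO (−4.32, SE 0.323, adjusted p = 6.51e-06). Its heavy chain partner Slc3a2 was 13.24, 12.82 and 13.21 with OMA1 ASO2 and 15.63, 15.67, 14.55, 14.89 and 14.30 with CTRL ASO (−1.92, adjusted p = 0.00421). Both chains of the exchanger were therefore lower in all 3 OMA1 ASO2 hearts than in any control. Slc7a3, a cationic amino acid transporter, was below background with OMA1 ASO2, at 4.10, 4.33 and 4.11, against 8.24, 9.04, 8.15, 9.05 and 7.78 with CTRL ASO, at least a 5.65-fold difference (adjusted p = 2.82e-06). Slc7a1, its relative, fell by 2.96 (adjusted p = 0.000201).

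Slc7a11, the cystine importer, was at 5.38, 5.52 and 5.49 with OMA1 ASO2, all below background, and 7.23, 7.19, 6.60, 8.17 and 6.96 with CTRL ASO. That is at least 2.42-fold, with a fitted difference of −1.77 (adjusted p = 0.00484). The sodium-coupled transporters Slc38a1 (−1.52, adjusted p = 0.0179), Slc38a2 (−1.14, adjusted p = 0.0691) and Slc1a4 (−1.56, adjusted p = 0.0713) did not pass. Slc3a2 and Slc7a11 missed the threshold against the CTRL ASO arrays without Y-linked signal, at adjusted p = 0.0332 and 0.012. Both were also lost without any 1 of the 3 OMA1 ASO2 arrays or without CTRL ASO replicate 1, and Slc7a11 without CTRL ASO replicate 2, at adjusted p-values of 0.0103 to 0.034.

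Mitochondrial one-carbon metabolism held the largest fall of all clusters. Mthfd2, a dehydrogenase and cyclohydrolase that the adult heart normally expresses little, was 9.14, 9.54 and 9.56 with OMA1 ASO2 and 15.62, 15.55, 15.71, 15.71 and 15.43 with CTRL ASO. The groups lay almost 6 log2 units apart with little spread in either, and the difference was −6.19, or 73.0-fold (SE 0.188, adjusted p = 5.76e-10 from limma). Aldh1l2, which oxidizes 10-formyltetrahydrofolate in the matrix, was 6.50, 5.57 and 7.04 with OMA1 ASO2 and 9.02, 9.88, 9.25, 10.37 and 9.52 with CTRL ASO (−3.24, adjusted p = 0.000113). These were the 2 of 7 members that passed. The serine hydroxymethyltransferase gene Shmt2 was at −1.41 (adjusted p = 0.0404), and the formate-releasing synthetase gene Mthfd1l at −1.05 (adjusted p = 0.0944).

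In the cytosolic folate pathway, 2 of 8 measured genes fell and 0 rose. Mthfs was below background with OMA1 ASO2, at 5.39, 4.82 and 5.25, and above it with CTRL ASO, at 7.08, 7.48, 7.71, 7.19 and 7.60, at least a 2.74-fold difference (adjusted p = 5.14e-05). Its related gene Mthfsl behaved alike, at least 2.12-fold lower (adjusted p = 1.15e-05). The 2 genes are similar in sequence, and whether their probes tell them apart was not tested. The other 6 members, among them the thymidylate synthase gene Tyms, did not pass.

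Cytosolic and mitochondrial aminoacyl-tRNA synthetases, the enzymes that charge tRNAs in the 2 compartments, were counted separately. Of 18 cytosolic synthetases, 10 fell and 0 rose, with a median of −1.66, whereas of 16 mitochondrial ones 0 passed, with a median of −0.05 and 2 lower at an unadjusted p under 0.05 in limma. Iars, the isoleucine enzyme, was 10.60, 10.64 and 10.82 with OMA1 ASO2 and 13.90, 13.60, 13.22, 13.89 and 13.50 with CTRL ASO (−2.93, SE 0.206, adjusted p = 4.45e-06). Yars, for tyrosine, was 9.37, 9.19 and 9.18 with OMA1 ASO2 and 12.28, 12.11, 11.94, 11.96 and 11.44 with CTRL ASO (−2.70, adjusted p = 1.05e-05). In both, the 3 OMA1 ASO2 hearts lay close together and more than 2 units below the lowest control.

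Eprs, the joint glutamate and proline enzyme, was 14.73, 14.86 and 14.50 with OMA1 ASO2 and 16.98, 17.34, 16.74, 17.34 and 17.04 with CTRL ASO (−2.40, adjusted p = 2.2e-05). Further falls were Sars (−2.74), Gars (−2.60), Cars (−2.55), Mars1 (−2.21), Nars (−1.97), Lars (−1.90) and Tars (−1.41). Among the 8 that did not pass, the lowest difference was −0.92, at Rars (adjusted p = 0.089). Gars encodes the glycine enzyme of both compartments, so the division by compartment is not exact. Nars2 had the lowest difference of the mitochondrial set, at −0.90 (adjusted p = 0.0453). Against the CTRL ASO arrays without Y-linked signal, 8 of the 10 calls held, and those of Mars1 (adjusted p = 0.0119) and Tars (adjusted p = 0.0669) did not. The Mars1 call was also lost without OMA1 ASO2 replicate 1 or 2, and that of Tars without OMA1 ASO2 replicate 2 or 3 or any CTRL ASO array but replicate 3, at adjusted p-values of 0.011 to 0.043.

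**Figure D3:**
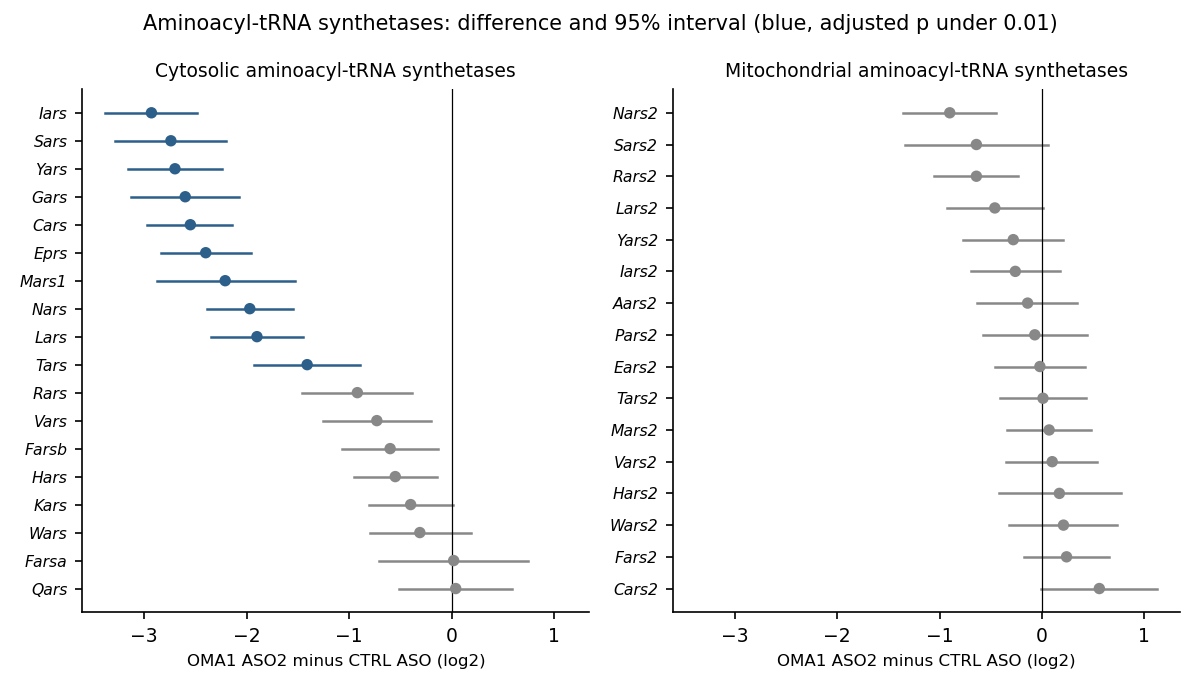
Difference between OMA1 ASO2 and CTRL ASO hearts (log2, x axis) for each measured aminoacyl-tRNA synthetase, with its 95% interval, cytosolic on the left and mitochondrial on the right. Blue marks the 10 cytosolic genes that passed, from Iars at −2.93 to Tars at −1.41, and the mitochondrial genes lie between −0.90 and 0.56.

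Xpot, Eif3c and Snd1 belong to none of the lists and were picked after their values were seen. Xpot, the exporter of tRNA from the nucleus, was 9.82, 10.07 and 9.28 with OMA1 ASO2 and 12.06, 12.23, 11.60, 12.41 and 11.60 with CTRL ASO (−2.26, adjusted p = 0.000178). Eif3c, a core subunit of the initiation factor eIF3, was 13.36, 13.63 and 13.86 with OMA1 ASO2 and 15.39, 15.47, 15.65, 15.34 and 15.24 with CTRL ASO (−1.80, adjusted p = 0.000123). Snd1, a nuclease-domain coactivator gene, fell by 3.34 (adjusted p = 3.63e-05). None of the 76 mitochondrial ribosomal protein genes passed. Their median was −0.08, and 5 were lower and 2 higher at an unadjusted p under 0.05 in limma, shares no larger than those of all clusters (7.13% and 6.33%).

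Mitochondrial chaperones and proteases fell in part. Of 18 measured, 2 fell and 0 rose, with a median of −0.48. Lonp1, the main soluble protease of the matrix, was 11.39, 11.67 and 12.02 with OMA1 ASO2 and 14.06, 14.32, 13.93, 14.15 and 13.83 with CTRL ASO (−2.36, SE 0.205, adjusted p = 2.29e-05). Hspa9, the matrix HSP70 that also pulls proteins through the import channel, was 15.76, 15.60 and 15.81 with OMA1 ASO2 and 17.00, 16.99, 17.25, 16.75 and 16.92 with CTRL ASO (−1.26, adjusted p = 0.0024). The adjusted p of Hspa9 was 0.0152 without the Y-linked signal arrays, and 0.0101 to 0.0176 without any 1 OMA1 ASO2 array. Hspd1, the chaperonin HSP60, was at −1.09 (adjusted p = 0.0277). Of 17 import genes, 0 passed in limma and 6 were lower at an unadjusted p under 0.05, against 7.13% of all clusters. The small chaperone of the intermembrane space Timm10 came nearest, at −1.36 (adjusted p = 0.0101).

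Few respiratory chain genes passed. None of 36 complex I subunits passed, with a median of 0.12, and 1 was lower at an unadjusted p under 0.05 in limma. In complex IV, 2 of 15 subunits fell, and both are the liver-type isoform of a subunit that has another isoform in heart and muscle. Cox6a1 was 12.53, 11.37 and 11.61 with OMA1 ASO2 and 13.60, 13.90, 13.52, 13.98 and 12.97 with CTRL ASO (−1.76, SE 0.289, adjusted p = 0.00502). Cox8a was 12.59, 12.32 and 12.63 with OMA1 ASO2 and 13.81, 13.90, 13.85, 14.00 and 13.22 with CTRL ASO (−1.24, adjusted p = 0.00719). The heart-type partners had overlapping groups, with differences of −0.55 for Cox6a2 (adjusted p = 0.564), 0.74 for Cox8b (adjusted p = 0.221) and 0.62 for the heart isoform Cox7a1 (adjusted p = 0.48). Cox7a2, the liver-type partner of Cox7a1, also had overlapping groups and did not pass (−0.51, adjusted p = 0.39). Neither call held without the Y-linked signal arrays, at adjusted p = 0.0501 for Cox6a1 and 0.0704 for Cox8a. Leaving out any 1 of CTRL ASO replicates 1 to 4 or of OMA1 ASO2 replicates 2 and 3 also ended both, as did OMA1 ASO2 replicate 1 for Cox8a, at adjusted p-values of 0.0112 to 0.0491.

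In other pathways of mitochondrial metabolism, single genes passed. Acot2, the matrix thioesterase that frees fatty acids from coenzyme A, was 13.78, 13.37 and 13.67 with OMA1 ASO2 and 16.35, 16.14, 16.24, 16.14 and 16.10 with CTRL ASO (−2.59, SE 0.184, adjusted p = 4.5e-06). It was the 1 gene of 29 in fatty acid uptake and oxidation to pass, where the median was −0.09. Me3, the mitochondrial NADP-dependent malic enzyme, was 8.74, 7.47 and 8.16 with OMA1 ASO2 and 10.74, 10.83, 10.72, 11.04 and 11.01 with CTRL ASO (−2.74, adjusted p = 3.63e-05). It was the 1 of 27 genes of the tricarboxylic acid cycle and its side branches to pass. Pdk4, the fasting-induced brake on pyruvate dehydrogenase, spread from 11.38 to 13.94 with OMA1 ASO2 and from 12.58 to 16.54 with CTRL ASO, and did not pass (−1.64, adjusted p = 0.392). Of 19 glycolytic genes, 0 passed in limma and 4 were lower and 1 higher at an unadjusted p under 0.05 (7.13% and 6.33% of all clusters), among them Pfkp at −1.68 (adjusted p = 0.0433) and the muscle enolase gene Eno3 at 0.95 (adjusted p = 0.0217).

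Esrrg, a nuclear receptor that promotes oxidative metabolism, was 7.22, 7.30 and 6.80 with OMA1 ASO2 and 9.40, 9.43, 9.47, 9.29 and 8.73 with CTRL ASO. It was the 1 of 12 coactivator and nuclear receptor genes that passed (−2.16, adjusted p = 9.83e-05). Slc25a39, the mitochondrial glutathione carrier, was 11.31, 10.43 and 10.54 with OMA1 ASO2 and 13.13, 13.16, 12.34, 13.13 and 12.51 with CTRL ASO. It fell by 2.09 (adjusted p = 0.000699), as 1 of 19 carriers, and had an adjusted p of 0.0105 without the Y-linked signal arrays. The pyrimidine carrier Slc25a33 was at −1.43 (adjusted p = 0.0184).

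**Figure D4:**
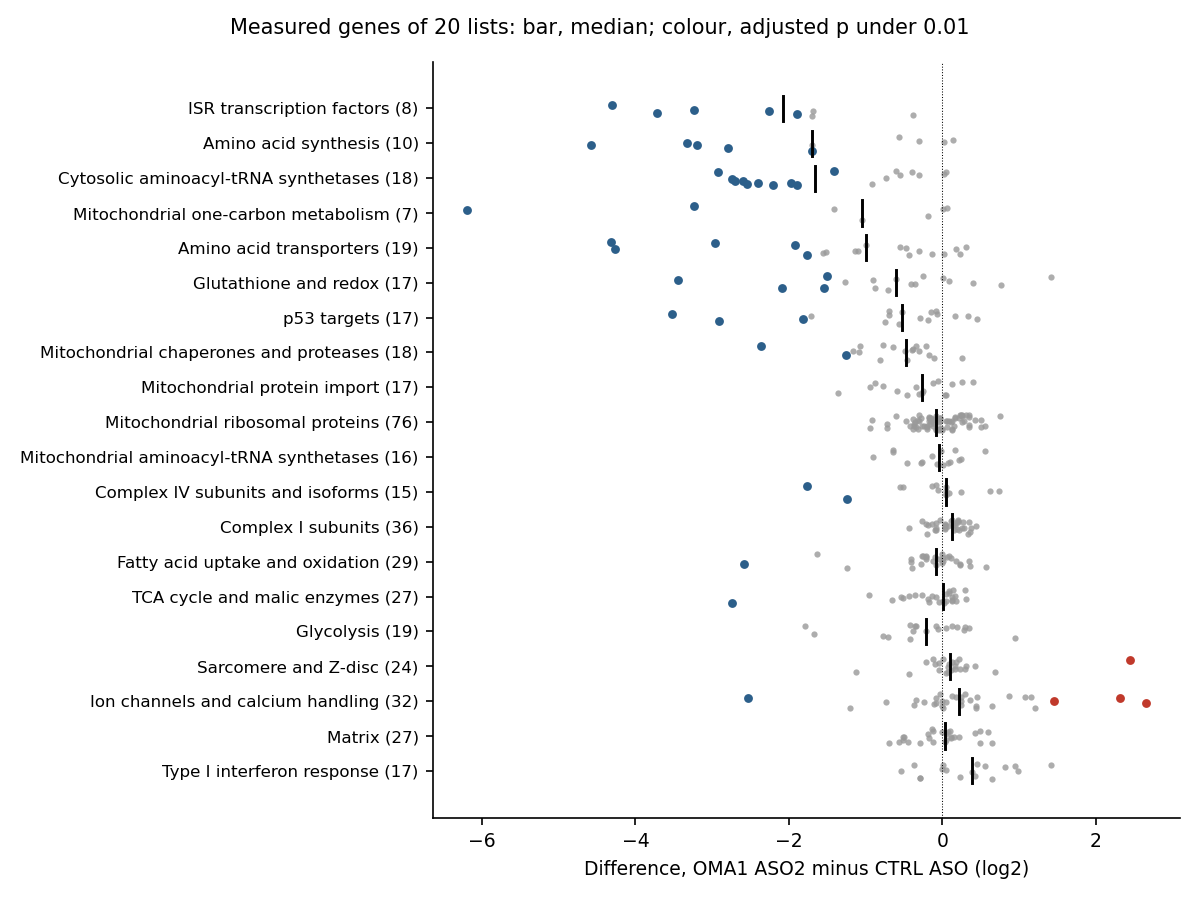
Difference between OMA1 ASO2 and CTRL ASO hearts (log2, x axis) for the measured genes of 20 lists, with the number measured in brackets. Blue points fell and red points rose at an adjusted p under 0.01, gray points did not pass, and the black bar is the median, from −2.07 for the ISR transcription factors to 0.39 for the type I interferon response.

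Glutathione and redox genes gave 4 falls among 17 measured (Chac1, Slc25a39, Hmox1 and Gsto1) and 0 rises. Hmox1, heme oxygenase 1, was 6.79, 6.91 and 6.48 with OMA1 ASO2 and 8.06, 8.31, 8.52, 8.39 and 8.05 with CTRL ASO (−1.54, SE 0.198, adjusted p = 0.000759). With the 5 arrays of mice given the first OMA1-targeting oligomer, OMA1 ASO1, added to the estimate of spread, its adjusted p was 0.0166. Gsto1, an omega-class transferase, averaged 12.24 with OMA1 ASO2 and 13.74 with CTRL ASO (2.82-fold lower, adjusted p = 0.00115), and its adjusted p was 0.0152 without the Y-linked signal arrays and 0.0108 without OMA1 ASO2 replicate 2. The glutathione synthetase gene Gss was at −1.27 (adjusted p = 0.0163). Gsta3, an alpha-class transferase, was higher in all 3 OMA1 ASO2 hearts, at 8.65, 8.19 and 8.30 against 6.48, 6.72, 7.51, 6.54 and 7.56 in CTRL ASO hearts, but did not pass (1.41, adjusted p = 0.0171).

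Of 18 genes of endoplasmic reticulum folding and the unfolded protein response, 1 fell and 0 rose, with a median of −0.26. At an unadjusted p under 0.05, 6 were lower and 0 higher, against 7.13% and 6.33% of all clusters. The gene that passed was Ern1, which encodes the sensor IRE1α. It was 7.79, 7.75 and 8.28 with OMA1 ASO2 and 9.74, 9.90, 9.45, 9.29 and 9.38 with CTRL ASO (−1.61, adjusted p = 0.00102, or 0.0102 without OMA1 ASO2 replicate 2). Dnajb9, a target of that sensor, was at −1.08 (adjusted p = 0.0248). In the lysosome list, Atp6v1h, a subunit of the proton pump, fell by 1.85 (adjusted p = 0.0041). Its adjusted p was 0.0406 without the Y-linked signal arrays, and 0.0116 to 0.0304 without OMA1 ASO2 replicate 1 or 3 or CTRL ASO replicate 1, 2 or 4. The autophagy receptor gene Sqstm1 was at −1.35 (adjusted p = 0.0404).

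Growth and p53 target genes included several large falls. Myc was 6.49, 6.43 and 7.77 with OMA1 ASO2 and 10.91, 11.18, 11.37, 10.09 and 9.88 with CTRL ASO, a 13.8-fold difference (−3.79, SE 0.378, adjusted p = 7.31e-05). It was the 1 of 21 immediate early genes to pass, and its adjusted p was 0.0225 with the OMA1 ASO1 arrays added to the estimate of spread. Cdkn1a, the cyclin-dependent kinase inhibitor p21, was 10.02, 7.76 and 8.84 with OMA1 ASO2 and 12.45, 13.62, 11.13, 12.85 and 11.92 with CTRL ASO (−3.52, adjusted p = 0.00225). Both groups of Cdkn1a spread over more than 2 units, yet they did not overlap.

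Gadd45a, a growth arrest gene, was 6.73, 7.86 and 7.79 with OMA1 ASO2 and 9.92, 9.83, 10.53, 11.54 and 10.06 with CTRL ASO (−2.91, adjusted p = 0.000714). With the receptor gene Eda2r (−1.82, adjusted p = 0.00668), 3 of 17 p53 targets fell and 0 rose. Trp53inp1 was at −1.71 (adjusted p = 0.0148). The calls of Cdkn1a and Eda2r were lost without the Y-linked signal arrays, at adjusted p = 0.0247 and 0.0598, and that of Cdkn1a with the OMA1 ASO1 arrays added to the estimate of spread, at 0.221. They were also lost at adjusted p-values of 0.013 to 0.0435 when single arrays were left out, namely OMA1 ASO2 replicate 2 or 3 for Cdkn1a and any 1 OMA1 ASO2 array or CTRL ASO replicate 1, 2 or 4 for Eda2r. Ccnd2, cyclin D2, named after its values were seen, fell by 2.50 (adjusted p = 2.88e-05).

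Cardiac peptide and stress genes changed in a few members. Ostn, which encodes osteocrin, a secreted ligand of the natriuretic peptide clearance receptor, was 10.67, 10.02 and 8.86 with OMA1 ASO2 and 15.05, 15.42, 15.19, 14.91 and 14.69 with CTRL ASO. The fall of 36.7-fold was the second largest among genes above background in both groups (−5.20, SE 0.327, adjusted p = 2.18e-06 from limma). Xirp2, an intercalated disc and Z-disc gene, was 12.76, 11.92 and 12.39 with OMA1 ASO2 and 14.18, 13.67, 13.58, 14.68 and 13.94 with CTRL ASO (−1.66, adjusted p = 0.00501). These were 2 of 11 members. The others included Nppa, atrial natriuretic peptide, which spread from 16.68 to 18.52 with OMA1 ASO2 and from 13.75 to 18.68 with CTRL ASO (1.44, adjusted p = 0.466). Skeletal actin Acta1, at −1.09 (adjusted p = 0.367), also did not pass. The adjusted p of Xirp2 was 0.0334 without the Y-linked signal arrays, and 0.0104 to 0.0399 without OMA1 ASO2 replicate 2 or 3 or CTRL ASO replicate 1 or 5.

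Ion channel and calcium handling genes were the list with most rises, 3 of 32, besides 1 fall. Kcnj3, a subunit of the acetylcholine-activated potassium channel, was 12.66, 13.44 and 13.45 with OMA1 ASO2 and 10.22, 10.11, 10.82, 10.37 and 11.15 with CTRL ASO (2.65, SE 0.274, adjusted p = 0.000102). Its channel partner Kcnj5 was higher in all 3 OMA1 ASO2 hearts but did not pass (0.87, adjusted p = 0.0528). Kcnj12, an inward rectifier subunit, was 11.58, 10.27 and 11.07 with OMA1 ASO2 and 8.50, 8.71, 8.60, 8.90 and 8.59 with CTRL ASO (2.31, adjusted p = 0.000178). Another inward rectifier subunit gene, Kcnj2, was at 1.21 (adjusted p = 0.0538). Gjc1, which encodes a gap junction connexin, rose by 1.45 (adjusted p = 0.00772), with an adjusted p of 0.0506 without the Y-linked signal arrays and of 0.0123 to 0.0493 without any 1 array other than CTRL ASO replicate 5.

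Slc8a1, the sodium-calcium exchanger, was the channel-list gene that fell. It was 13.05, 11.52 and 10.99 with OMA1 ASO2 and 14.54, 14.72, 14.19, 14.41 and 14.09 with CTRL ASO (−2.54, adjusted p = 0.00168). OMA1 ASO2 replicate 1 lay closer to the controls than the other 2, and the adjusted p was 0.0192 without the Y-linked signal arrays and 0.0174 without OMA1 ASO2 replicate 2. In the sarcomere and Z-disc list, Myot, myotilin, was the 1 of 24 genes to pass, at 12.19, 11.50 and 12.07 with OMA1 ASO2 against 9.77, 8.99, 9.09, 9.60 and 9.94 with CTRL ASO (2.44, adjusted p = 0.000122, or 0.014 with the OMA1 ASO1 arrays added to the estimate of spread). Dmd, dystrophin, named after its values were seen, fell by 2.03 (adjusted p = 0.00118, or 0.0101 without OMA1 ASO2 replicate 3).

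**Figure D5:**
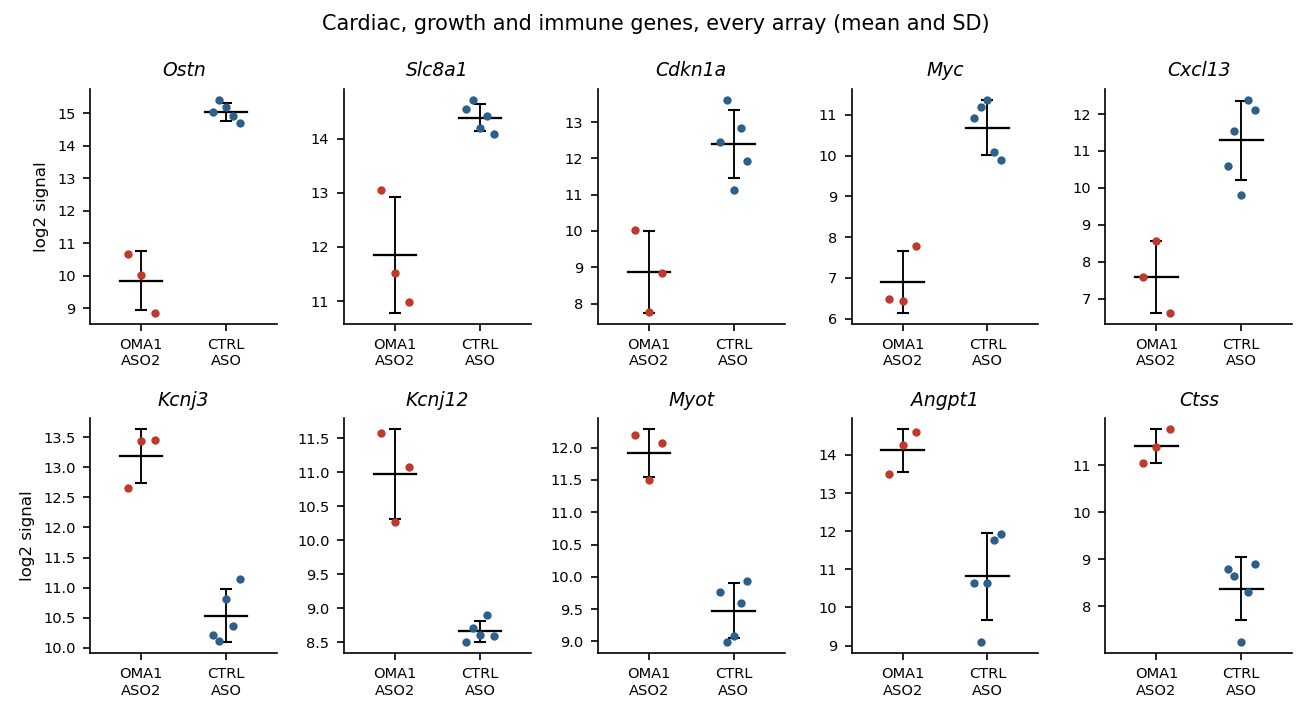
Log2 signal of 10 cardiac, growth and immune genes on every array, OMA1 ASO2 (red, n = 3) and CTRL ASO (blue, n = 5), with the group mean and SD as black bars and a separate y axis for each gene. Ostn, Slc8a1, Cdkn1a, Myc and Cxcl13 are lower and Kcnj3, Kcnj12, Myot, Angpt1 and Ctss higher in every OMA1 ASO2 heart than in any CTRL ASO heart.

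Matrix, growth factor and receptor genes gave a single call. None of 27 matrix genes passed in limma, with a median of 0.03 and 0 at an unadjusted p under 0.05. Of 18 TGF-β, activin and BMP genes, Inhba, the activin A subunit, was the 1 that passed, at 5.49, 6.66 and 6.07 with OMA1 ASO2 and 8.79, 8.99, 7.03, 9.85 and 9.14 with CTRL ASO (−2.69, adjusted p = 0.00895). Its adjusted p was 0.0572 without the Y-linked signal arrays and 0.017 to 0.0586 without any 1 array other than CTRL ASO replicate 3. Tgfb2 was at −1.39 (adjusted p = 0.0663) and the atrial ligand gene Bmp10 at −2.29 with overlapping groups (adjusted p = 0.236). None of 10 cardiac G protein-coupled receptor genes passed in limma, and 2 were lower and 2 higher at an unadjusted p under 0.05 (7.13% and 6.33% of all clusters).

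Some of the largest falls lie outside the lists. B4galnt2, a glycosyltransferase of the Sda blood group antigen, was below background with OMA1 ASO2, at 4.16, 4.55 and 4.42, and was 8.34, 9.74, 9.23, 11.38 and 9.89 with CTRL ASO, at least a 13.6-fold difference (adjusted p = 2.69e-05). A cluster annotated to the vomeronasal receptor gene Vmn2r3 was at least 9.27-fold lower (adjusted p = 5.54e-06). Cyb5r1, an NADH-cytochrome b5 reductase, was 5.96, 5.95 and 5.87 with OMA1 ASO2, 1 of them above background, and 9.96, 10.77, 9.80, 10.79 and 8.88 with CTRL ASO (−4.11, adjusted p = 2.29e-05). Named after their values were seen, the ubiquitin hydrolase gene Uchl1 was at least 5.29-fold lower (adjusted p = 0.000122), and Maoa, monoamine oxidase A, fell by 2.49 (adjusted p = 0.000641).

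The rises were smaller and came from varied functions. Cep128, a centriole protein gene, was 12.65, 13.02 and 13.38 with OMA1 ASO2 and 10.01, 9.69, 9.89, 8.39 and 10.25 with CTRL ASO (3.37, SE 0.351, adjusted p = 0.000108 from limma). Angpt1, a vascular growth factor that stabilizes vessels through the receptor TIE2, was 13.50, 14.26 and 14.60 with OMA1 ASO2 and 10.64, 9.09, 10.65, 11.76 and 11.93 with CTRL ASO (3.30, adjusted p = 0.00306). The controls of Angpt1 spread over almost 3 units but stayed below every OMA1 ASO2 heart. Its adjusted p was 0.0101 to 0.0256 without OMA1 ASO2 replicate 2 or 3 or CTRL ASO replicate 1. It was 0.0303 with a mean-variance trend and robust fitting, and 0.08 with the OMA1 ASO1 arrays added to the estimate of spread.

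Apod, a secreted lipid-binding lipocalin, was 11.61, 11.69 and 12.44 with OMA1 ASO2 and 8.74, 9.54, 9.70, 8.79 and 8.58 with CTRL ASO (2.84, adjusted p = 0.000102). Pla2g5, a secreted phospholipase, was 8.78, 8.79 and 9.34 with OMA1 ASO2 and 6.72, 6.60, 6.74, 6.52 and 6.80 with CTRL ASO (2.29, adjusted p = 2.2e-05). Pgap1, which remodels lipid anchors of membrane proteins, was 8.94, 9.28 and 8.63 with OMA1 ASO2 and 6.92, 6.85, 6.97, 6.94 and 7.30 with CTRL ASO (1.95, adjusted p = 0.00011). The calls of Apod, Pla2g5 and Pgap1 held under all 18 alternative fits that were run.

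Smco1, a membrane protein gene, rose by 2.18 (adjusted p = 0.00297), Rgs2, which shortens signaling through Gq-coupled receptors, by 1.86 (adjusted p = 0.00195), and Hnmt, which degrades histamine, by 1.81 (adjusted p = 0.00263). Ano3, an anoctamin, was below background with CTRL ASO and at least 1.5-fold higher with OMA1 ASO2 (adjusted p = 0.00315). None of these 4 held without the Y-linked signal arrays, where adjusted p-values were 0.012 to 0.0297. Each was also lost without OMA1 ASO2 replicate 1 (Smco1, Rgs2, Hnmt), 2 (Smco1, Hnmt, Ano3) or 3 (Smco1, Rgs2, Ano3), and Ano3 without CTRL ASO replicate 1 or 2, at adjusted p-values of 0.01 to 0.0245.

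Immune genes moved in both directions. Ctss, cathepsin S, a protease of antigen-presenting cells, was 11.05, 11.39 and 11.77 with OMA1 ASO2 and 8.79, 8.64, 7.24, 8.31 and 8.90 with CTRL ASO (3.02, SE 0.331, adjusted p = 0.000152). Cxcl13, the chemokine that guides B cells, was 7.58, 8.56 and 6.62 with OMA1 ASO2 and 10.58, 11.54, 9.81, 12.39 and 12.11 with CTRL ASO (−3.70, adjusted p = 0.00205). Ccl21a, a chemokine of lymphatic vessels, was 9.48, 9.03 and 8.80 with OMA1 ASO2 and 7.22, 7.06, 8.11, 7.17 and 7.45 with CTRL ASO (1.70, adjusted p = 0.00276). The 2 homeostatic chemokines thus went in opposite directions.

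Clusters annotated to Ccl21b and Ccl21c had identical values and rose by 2.28 (adjusted p = 0.00212). These copies are nearly the same in sequence, so which of the Ccl21 genes gave the signal is uncertain. Without the Y-linked signal arrays, adjusted p-values were 0.0341 for Ccl21a, 0.0205 for Ccl21b and Ccl21c and 0.0101 for Cxcl13. With the OMA1 ASO1 arrays added to the estimate of spread, they were 0.0983 for Ccl21a and 0.0537 for Ccl21b and Ccl21c, and with a mean-variance trend and robust fitting 0.023 for Cxcl13. The Ccl21 calls were also lost without OMA1 ASO2 replicate 1 or 2, and that of Cxcl13 without OMA1 ASO2 replicate 1 or 3, at adjusted p-values of 0.0125 to 0.0208.

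Macrophage markers did not move together. Of 6 measured, Cd163, a scavenger receptor of resident macrophages, fell. It was below background with OMA1 ASO2, at 5.40, 4.99 and 4.98, and was 7.16, 7.27, 6.74, 6.70 and 6.36 with CTRL ASO, at least a 1.85-fold difference (adjusted p = 0.00121). Its adjusted p was 0.0131 without the Y-linked signal arrays and 0.0117 without OMA1 ASO2 replicate 2. Adgre1, a general macrophage marker, was higher in all 3 OMA1 ASO2 hearts, at 6.99, 7.63 and 7.75 against 6.59, 6.03, 5.28, 6.56 and 6.05 in CTRL ASO hearts, but did not pass (1.36, adjusted p = 0.0275). C1qb was likewise higher, at 6.51, 6.55 and 7.12 with OMA1 ASO2 and 5.91, 5.62, 5.40, 6.34 and 6.30 with CTRL ASO. It did not pass (0.81, adjusted p = 0.158). C1qa (0.58, adjusted p = 0.301) and Mrc1 (−0.59, adjusted p = 0.344) did not pass either. At an unadjusted p under 0.05 in limma, 2 of the 6 were lower and 3 higher, against 7.13% and 6.33% of all clusters.

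The mean signal of the 6 macrophage markers was 7.34 to 7.53 in OMA1 ASO2 hearts and 6.82 to 7.70 in CTRL ASO hearts, so the groups overlapped. That of the 5 lymphatic endothelial markers was 8.06 to 8.47 with OMA1 ASO2 and 7.49 to 7.76 with CTRL ASO, without overlap. Ccl21a is 1 of them, so this mean is not separate from its own rise, and the other 4 did not pass. Lyve1 (0.83), Pdpn (0.54) and Flt4 (0.06) had overlapping groups. The 5 neutrophil and monocyte markers were at 5.29 to 5.50 with OMA1 ASO2 and 4.94 to 5.09 with CTRL ASO. Both of these ranges lay below background, and only 2 of the 5 markers were above it on any array. The 5 fibroblast markers were at 12.45 to 12.56 with OMA1 ASO2 and 11.80 to 12.72 with CTRL ASO. The 4 lymphoid stroma markers, which include Cxcl13 and Ccl21a, were at 5.49 to 6.19 with OMA1 ASO2 and 6.22 to 6.64 with CTRL ASO. Only these 2 genes were above background on any array, so this mean is not separate from their own changes. B cell, adipocyte and skeletal muscle markers lay below background on every array. The part of cell composition in the changes of Ctss, Cxcl13, Ccl21a and Cd163 was not tested.

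Of 17 type I interferon response genes, 0 passed in limma, with a median of 0.39 and 5 higher at an unadjusted p under 0.05, against 6.33% of all clusters. Irf7, the regulator of that response, came nearest, at 1.42 (adjusted p = 0.0134), and was above background on only 1 of the 8 arrays. Antigen presentation (16 genes), circadian clock (17), cell cycle (14) and cholesterol synthesis (11) genes also gave 0 calls, with 4, 2, 1 and 2 genes at an unadjusted p under 0.05 in either direction, against 13.5% of all clusters. The circadian clock and cell cycle counts were below that share, but only 3 of the 14 cell cycle genes were above background on any array. Of 13 genes of mTORC1 and its inhibitors, 0 passed in limma and 3 were lower and 1 higher at an unadjusted p under 0.05 (7.13% and 6.33% of all clusters). The mTOR inhibitor gene Deptor was at −1.49 (adjusted p = 0.0191), and Rragd, a GTPase gene that recruits mTORC1 to the lysosome, at 1.12 (adjusted p = 0.0228).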

How the data were processed

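Perfused whole hearts were hybridized to Clariom S Mouse arrays, 1 array per mouse. The deposited values are log2 signals for each transcript cluster, which the authors made from the scans in the Transcriptome Analysis Console with gene-level SST-RMA background correction, normalization and summary. The genome build behind the array annotation was not given in the sources used here. Of 28846 probe sets, 6640 control sets were left out, and 22206 transcript clusters were tested, 19572 of them with 1 gene symbol and 2634 with none. Background was set per array, and clusters counted as above it when their signal exceeded the highest of the 23 background probe groups of that array.

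Groups were compared with limma 3.58.1 in R 4.3.3 (lmFit and eBayes, no trend, OMA1 ASO2 minus CTRL ASO) and Benjamini-Hochberg adjustment over all clusters. A call was an adjusted p under 0.01. The scripts were tested on simulated data. With 3 and 5 arrays, the number of arrays limits the precision, and p-values measure the spread between mice. Each listed gene was represented by its brightest cluster. Gene lists were described by counts and medians without a set test. The lists and the genes were chosen with earlier results of these data known.

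Named genes were Oma1, Chchd10, the 15 largest falls and the 15 largest rises with 1 symbol, no overlap between groups and the higher group above background throughout, and up to 4 members of each list with the smallest p, with others where the account of a list needed them. All of these 15 falls and 15 rises are named in the text. Snd1, Xpot, Eif3c, Uchl1, Maoa, Ccnd2 and Dmd were chosen after their values were seen. Alternatives were another moderation of the spread, all 3 groups of arrays in 1 model, renewed normalization, centring, filters on low signal, array weights, Y-linked signal as a covariate or without the arrays that had it, the replicate number as a block, a looser threshold, a fold minimum and leaving out each array. Promoter sequences were RefSeq windows of GRCm38.p6 in a given table, matched by symbol.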

Additional observations from a re-analysis of the deposited data

Results flagged for a closer look

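For 126 named genes, the 5 CTRL ASO arrays were searched for a value that stood apart from the other 4 by Dixon's test. 4 genes had one, all on CTRL ASO replicate 5. Chance alone would give about 1 in 20 groups, so 4 of 126 is no more than chance would give. The genes were read on the same 5 arrays and are not independent. There, Cars was 10.19 against 10.55 to 10.64 on the other CTRL ASO arrays. Cox8a was 13.22 against 13.81 to 14.00, and Esrrg 8.73 against 9.29 to 9.47. Pgap1 was the 1 that stood above, at 7.30 against 6.85 to 6.97. In each of these genes, replicate 5 lay on the side of the OMA1 ASO2 hearts but outside their range, and all 4 calls were made with it included. Groups of 3 arrays were not searched.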

How the results depend on the processing

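With OMA1 ASO2, 186 clusters were called, 128 lower and 58 higher. With the mean Y-linked signal as a covariate, 88 were called (66 lower, 22 higher), and with only the arrays without Y-linked signal, 93 (70 lower, 23 higher). At an adjusted p under 0.05, 446 were called (270 lower, 176 higher). Leaving out 1 array gave 95 to 179 calls, 73 to 123 lower and 22 to 56 higher, OMA1 ASO2 replicate 2 being the array whose absence left the fewest and replicate 3 of that group the next fewest, 113. The replicate numbers 1 to 3 occur in both groups, but nothing in the labels ties the mice. Deviations of same-numbered arrays correlated at 0.122, −0.0561 and 0.178. Each OMA1 ASO2 array was compared only with CTRL ASO replicates 1 to 3, and among these its own number was highest. For OMA1 ASO2 replicate 2 that highest value was negative. CTRL ASO replicates 4 and 5 were not compared, so these values do not show that the numbers pair the mice. A fit with the replicate block gave 128 calls, 91 lower and 37 higher. All other settings moved these counts by less than 1.5 times. Oma1 lay between −5.22 and −4.43 throughout. Of 80 named genes that were called, 47 were called in all 18 alternative fits, 51 whichever single array was left out, and none changed direction. The model of all 3 groups of arrays ended 10 of the 80 calls, those of Slc3a2 and Cox6a1 included. Among genes that were not called, Dele1 ran from −0.36 to 0.12 when 1 array was left out, Eif2ak1 from 0.00 to 0.24, and Opa1 from −0.01 to 0.12. Eif2ak1 was also at 0.00 with the Y-linked covariate. Values below background give only a bound on the fold.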
